A study of Mus musculus with 2 samples.

Results

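The FOXP and FOXO subfamilies of forkhead transcription factors were examined in open chromatin of mouse common myeloid progenitors. The 8 genes were Foxp1, Foxp2, Foxp3, Foxp4, Foxo1, Foxo3, Foxo4 and Foxo6, of 21670 protein-coding genes on chromosomes 1 to 19 and X. Their accessible regions were chosen by the measured peaks of both replicates: 15 promoter regions at most 1 kb from where an annotated coding transcript begins, and 59 distal regions whose nearest such start, within 100 kb, belongs to one of the genes. These 74 were taken from 67376 regions in all. Because measured peak positions and signals chose them, counts and signals in that list are descriptions and carry no test.

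The assay was ATAC-seq, which uses a transposase to cut and label open DNA. The cells were primary common myeloid progenitors of adult male C57BL/6J mice aged 5 to 6 weeks, with no treatment or genotype named, in 1 group of 2 biological replicates of 50000 cells each. Their donor label is identical and separate animals are not mentioned, so differences between the replicates may be technical. No other cell type or condition was profiled here, and the files hold no read counts, so the depth of each library is unknown. Each peak has a signal value from the submitters, on a scale that is not stated, which ranks peaks within a list.

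The label of the cells was set against marker genes. Of 15 genes of common myeloid progenitors, such as Kit, Cd34, Spi1 and Cebpa, 14 had a promoter region, and Gata2 had none although 4 distal regions were nearest to it. Of 8 genes of mature neutrophils none had one, and 4 of 9 genes each of T cells (Cd3d, Cd5, Lat and Cd28) and B cells (Cd79b, Pax5, Ebf1 and Cr2) did. Among all protein-coding genes, 61.3% had a promoter region. The replicates' own lists held 47520 regions for replicate 1 and 37608 for replicate 2.

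FOXO factors act downstream of insulin and growth factor signalling: AKT phosphorylates them and they leave the nucleus, and without that signal they enter it and activate genes of cell cycle arrest, cell death and oxidative stress resistance. Foxo1, Foxo3 and Foxo4 are known to act together to preserve hematopoietic stem cells. FOXP factors form dimers and mostly repress transcription; Foxp1 acts in B cell and monocyte development, Foxp2 in the brain, Foxp3 is the defining factor of regulatory T cells, and Foxp4 is expressed in lung, gut and other tissues.

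The sequence at the summit of the strongest promoter region is shown first, since these windows carry the contrast in base composition described further on. Each window reaches 50 bases to either side of the summit in the GRCm38.p6 assembly of RefSeq, on the plus strand, and matches to the searched motifs are in capitals. The window of Foxp2, which lies in a UTR, is not shown.
Foxp1, chr6:99248594-99248694: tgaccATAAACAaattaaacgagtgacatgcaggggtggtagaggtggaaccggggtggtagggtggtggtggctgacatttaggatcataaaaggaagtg
Foxp3, chrX:7574359-7574459: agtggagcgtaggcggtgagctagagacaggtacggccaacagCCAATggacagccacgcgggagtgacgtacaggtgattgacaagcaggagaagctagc
Foxp4, chr17:47924741-47924841: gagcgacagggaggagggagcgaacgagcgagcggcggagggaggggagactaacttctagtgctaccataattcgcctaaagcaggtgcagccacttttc
Foxo1, chr3:52268254-52268354: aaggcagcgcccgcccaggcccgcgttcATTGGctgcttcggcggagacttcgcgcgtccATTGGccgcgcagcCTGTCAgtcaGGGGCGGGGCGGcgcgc
Foxo3, chr10:42277771-42277871: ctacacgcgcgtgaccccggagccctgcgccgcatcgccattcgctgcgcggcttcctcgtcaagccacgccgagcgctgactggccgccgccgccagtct
Foxo4, chrX:101254045-101254145: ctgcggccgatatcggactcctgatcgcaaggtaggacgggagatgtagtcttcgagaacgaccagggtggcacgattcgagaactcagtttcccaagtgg
Foxo6, chr4:120287987-120288087: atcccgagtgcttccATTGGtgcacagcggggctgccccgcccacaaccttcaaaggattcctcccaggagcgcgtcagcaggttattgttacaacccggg

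The capitals in the Foxp1 window mark a forkhead sequence. Those in the window of Foxp3 mark CCAAT, which NFY binds, and those of Foxo6 mark it on the reverse strand. Those of Foxo1 mark CCAAT on the reverse strand at a pair of places, a MEIS match and a pair of overlapping SP/KLF matches. No searched motif matched in the windows of Foxp4, Foxo3 and Foxo4.

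The strongest distal region of 5 genes is shown as an example of the sites that the values and motif counts below describe. At most 12 windows were to be printed, and the one of Foxo6 fell outside that number. Build, strand and capitals are as above.
Foxp1, chr6:99241766-99241866: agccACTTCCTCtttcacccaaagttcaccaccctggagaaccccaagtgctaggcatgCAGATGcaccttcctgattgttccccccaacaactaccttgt
Foxp2, chr6:15163824-15163924: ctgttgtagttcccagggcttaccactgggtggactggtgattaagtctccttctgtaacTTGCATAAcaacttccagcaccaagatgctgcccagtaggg
Foxp4, chr17:47943211-47943311: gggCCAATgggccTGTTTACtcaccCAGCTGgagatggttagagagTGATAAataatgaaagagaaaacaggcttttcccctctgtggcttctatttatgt
Foxo1, chr3:52309044-52309144: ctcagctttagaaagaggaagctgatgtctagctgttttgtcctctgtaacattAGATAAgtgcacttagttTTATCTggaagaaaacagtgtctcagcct
Foxo3, chr10:42308293-42308393: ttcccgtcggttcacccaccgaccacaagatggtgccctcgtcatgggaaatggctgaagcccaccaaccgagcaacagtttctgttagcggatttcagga

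In the Foxp1 window the capitals mark a PU.1 and an E-box match. The Foxp2 window has a C/EBP match and the Foxo1 window a pair of GATA matches. The Foxp4 window has CCAAT, a forkhead sequence, an E-box and a GATA match, and it was the only one of the 74 with the strict forkhead sequence GTAAACA.

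All 8 genes had a promoter region in the conservative list, beside 61.3% of all protein-coding genes. In a bulk population, a site open in few cells and a site partly open in all cells cannot be told apart. In the list called from replicate 1 alone, 7 of the 8 had one, beside 56.7% of all genes, and in that of replicate 2 it was again 7, beside 52.4%. Foxp2 was the gene missing from both. Its promoter region was in the more permissive pseudoreplicated list of each replicate, with a signal of 5.81 in replicate 1 and 4.63 in replicate 2. With regions limited to the upper 50% by signal, 4 genes retained a promoter region. The share of all genes under that limit was not counted, so this is not read as a drop particular to these genes.

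Most promoter regions of these genes had signals under the median of all promoter regions, though not those of every gene. Of the 15 regions, 7 belong to Foxp1 alone, and all of these were under it. The signals of the 15 promoter regions ran from 3.46 to 14.99 with a median of 6.76, beside a median of 9.17 over all 15551 promoter regions, and 12 of the 15 lay below that median. The strongest promoter region of Foxo1, the factor best known for insulin-dependent control of metabolism, was above those of 14.5% of the genes with one, that of Foxo3 above 13.6% and that of Foxp2 above 6.37%. Foxo4, with a signal of 10.7, and Foxp3, with 14.99, were the only genes above the middle of that order, at 52.3% and 88.1%. The Foxp3 region is also a promoter region of Ppp1r3f, and its summit is nearer to a start of that gene.

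**Figure D1:**
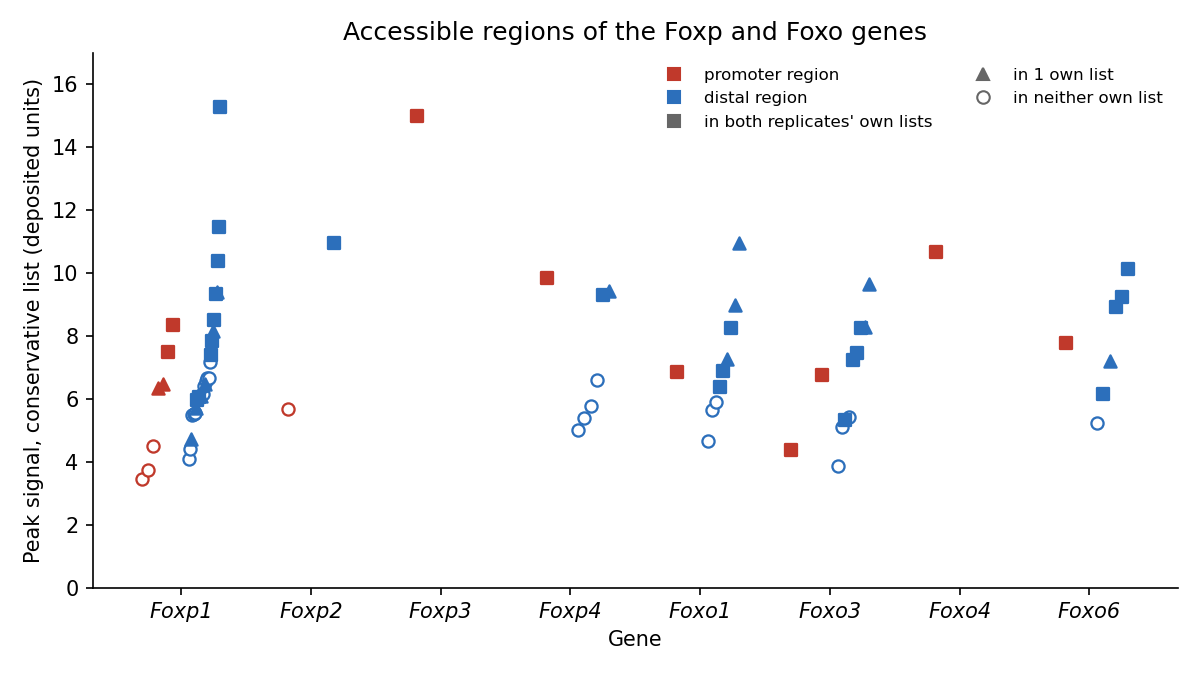
Peak signal (deposited units) of each promoter region (red) and distal region (blue) of the 8 genes in the conservative list. Squares lie in the own list of both replicates, triangles in that of 1 replicate and open circles in neither. Foxp1 has 28 distal regions, Foxp2 has 1, and Foxp3 and Foxo4 have none.

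Foxp1 spans 597 kb of chromosome 6 (98925338 to 99522721, minus strand) and had 7 promoter regions, at 8 of the 14 annotated starts of its coding transcripts. The strongest, at the start of transcript Foxp1-223, had a signal of 8.35, with 7.39 in replicate 1 and 7.88 in replicate 2. The next was at the start of Foxp1-218, with 7.48, and 6.59 and 7.65 in the replicates. Both were within the own lists of both replicates, and no other promoter region of the gene was. The next, close to the second, had 6.48, and the one at the start shared by Foxp1-204, Foxp1-221 and Foxp1-222 had 6.36; replicate 1 alone held these in its own list. The remaining signals were 4.51, 3.74 and 3.46, in neither own list.

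Several starts of Foxp1 lay away from any region. The start at 99163018, shared by 5 transcripts including Foxp1-201, was 30.7 kb from the nearest region. The most upstream starts of coding transcripts, at 99521162 and 99520997, were 1.41 and 1.57 kb from a region at chr6:99522568-99522791, with a signal of 4.73. That region overlaps the 5′ end of the annotated gene, in an exon, and had 71.4% GC and a CpG observed-to-expected ratio of 1.28, the highest ratio among the 74. Under the 1 kb rule it counted as distal. Replicate 1 held it in its own list with 5.03, and replicate 2 had no peak there in any of its own lists.

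Foxp2 spans 541 kb of the same chromosome (14901349 to 15441977, plus strand). Its promoter region, at the pair of most upstream starts out of 8 annotated, had a signal of 5.68 and was in neither replicate's own list. The other 6 starts, used by transcripts Foxp2-201 to Foxp2-205 among others, were 20.7 to 33.0 kb from the nearest region.

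Foxp3 on chromosome X (7573644 to 7595245, plus strand) had a single region, chrX:7574207-7574976, with a signal of 14.99. It was in the own list of both replicates, with 13.2 in replicate 1 and 15.01 in replicate 2. It also lay within 1 kb of a start of Ppp1r3f, a regulatory subunit gene of protein phosphatase 1, and its summit was nearer to that start than to any of Foxp3. Of the 7 annotated starts of Foxp3 coding transcripts it was near only that of Foxp3-209, 563 bp away. The other 6, from 7579567 to 7586355, were 4.59 to 11.4 kb from it and no other region was nearer. Within 500 bp of a start no Foxp3 region was left, and 7 genes then had a promoter region. The share of all genes within 500 bp was not counted. Of 7 other marker genes of regulatory T cells, Ikzf2 and Tnfrsf18 had a promoter region (28.6%, beside 61.3% of all protein-coding genes). All 7 nevertheless had distal regions, with a median of 3, beside a median of 1 over all protein-coding genes, of which 39.2% had none. The part of other cell types in the region at Foxp3 was not tested.

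Foxp4 on chromosome 17 (47867133 to 47924645, minus strand) had 1 promoter region that covered all 4 of its starts. Its signal was 9.85, with 10.4 in replicate 1 and 7.64 in replicate 2, a ratio of 1.37 that was the widest between the replicates among the 71 regions compared. It was in both own lists.

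Foxo1 on chromosome 3 (52268336 to 52353221, plus strand) has 1 annotated start, and the region there had a signal of 6.86, with 6.89 in replicate 1 and 5.73 in replicate 2. Foxo3 on chromosome 10 (42181841 to 42276755, minus strand) had a pair of promoter regions. The stronger, with 6.76, and 6.12 and 7.32 in the replicates, lay upstream of the start, with its summit 1.07 kb from it. The weaker one covered 4 of the 5 starts and had 4.38, with 4.45 and 4.03. Thus the region at the Foxo3 starts themselves was the weaker, and replicates 1 and 2 each listed both.

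Foxo4 on chromosome X (101254528 to 101260873, plus strand) had a promoter region over both of its starts with a signal of 10.7, and 10.5 in replicate 1 and 8.66 in replicate 2. Foxo6 on chromosome 4 (120267079 to 120287349, minus strand), a family member known mainly from the brain, had one 301 bp from its single start with 7.77, and 7.81 and 7.75 in the replicates. Each was in both own lists. In all, 23 of the 42 starts of the 8 genes had a region within 1 kb. The share over all 54081 starts was not counted, so this count cannot be called high or low.

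Base composition separated the Foxp1 promoter regions from those of the other 7 genes. The 7 Foxp1 regions had 46.4% to 58.5% GC (median 48.7%) and CpG observed-to-expected ratios of 0.215 to 0.666, while the 8 regions of the other genes had 59.6% to 70% GC (median 65.3%) and ratios of 0.721 to 1.09. The ranges do not overlap on either measure under the 1 kb rule, but the 7 regions belong to a single gene. The region at the annotated 5′ end of Foxp1, which counted as distal, had 71.4% GC and a ratio of 1.28. Counted as a promoter region, it would lie above both ranges. Over all promoter regions the medians were 59.2% GC and 0.684, and over all distal regions 48.7% and 0.224. The promoter medians lie between the ranges on both measures, so promoter regions at large fall on either side. The 7 Foxp1 promoter regions thus had the same median GC content as distal regions at large. The highest of them, at the start of Foxp1-214, was close to the median of promoters.

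**Figure D2:**
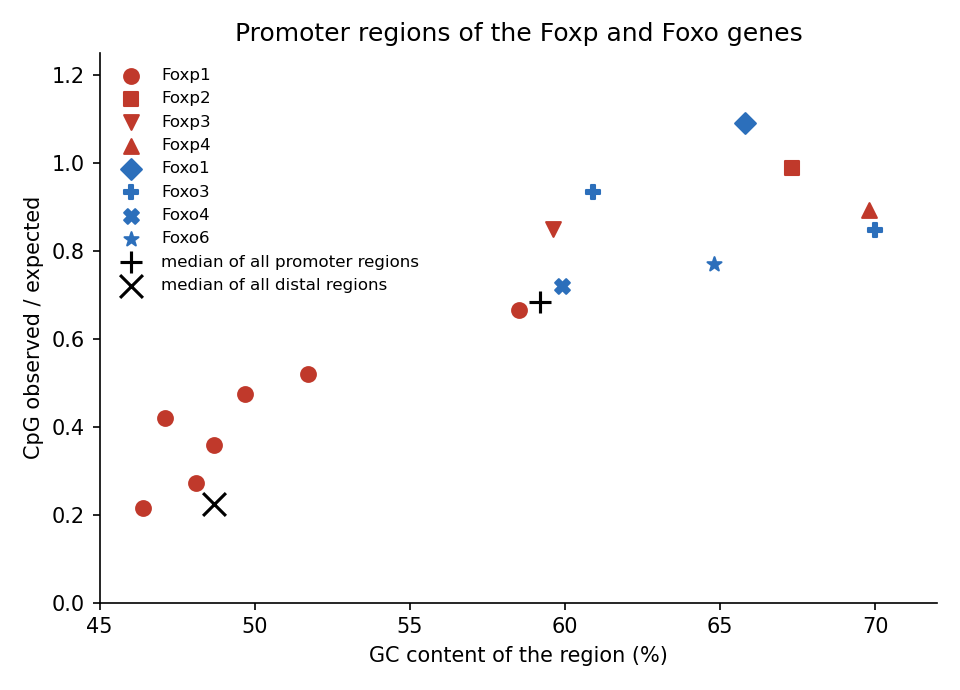
GC content (percent) and CpG observed-to-expected ratio of the 15 promoter regions, with FOXP genes in red and FOXO genes in blue. Black marks give the medians of all promoter regions (59.2% GC, ratio 0.684) and all distal regions (48.7% GC, ratio 0.224). The Foxp1 regions fill the lower left. The region at the annotated 5′ end of Foxp1, which counted as distal, is not drawn.

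The distal regions were unequally spread. Foxp1 had 28 of the 59 (47.5%), Foxo1 and Foxo3 had 9 each, Foxp4 and Foxo6 had 6 each, Foxp2 had 1, and Foxp3 and Foxo4 had none. The median over all protein-coding genes was 1, and 39.2% of genes had none. For Foxp1, 3 genes of the 21670 had more distal regions and 1 other had as many. For Foxo1 and Foxo3, 688 genes had more, and for Foxp4 and Foxo6, 1729.

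Per 100 kb of gene body the order changed, because Foxp1 is long. Foxo6, of 20.3 kb, had 29.6 distal regions per 100 kb, Foxo1 10.6, Foxp4 10.4, Foxo3 9.48, Foxp1 4.69 and Foxp2 0.185. Over all protein-coding genes the median was 3.11, and over the 2481 genes of at least 100 kb it was 1.81. Of the 6 Foxo6 regions only 1 lay inside the gene, so this ratio relates regions around a short gene to its length. Counting summits inside the gene body alone gave 34 for Foxp1, 6 for Foxo3, 4 for Foxp4, 3 each for Foxo1 and Foxp2, and 1 each for Foxp3, Foxo4 and Foxo6.

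Foxp1 and Foxp2 are neighbours in length and far apart in this count. Among the 230 protein-coding genes of at least 500 kb, where the median was 2 distal regions, Foxp1 ranked 3 and Foxp2 140. The series IDR-thresholded list, which keeps peaks by their irreproducible discovery rate, gave 22 for Foxp1 and 1 for Foxp2. Replicate 1's own list gave 15 and 1, replicate 2's 9 and 1, and the replicated-peaks list 81 and 4. Foxp1 was thus above Foxp2 in each list, while its count changed by over 1.5 times between lists. Among peaks that were ranked but did not pass the threshold of the conservative list, 54 further distal regions fell to Foxp1 and 3 to Foxp2.

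**Figure D3:**
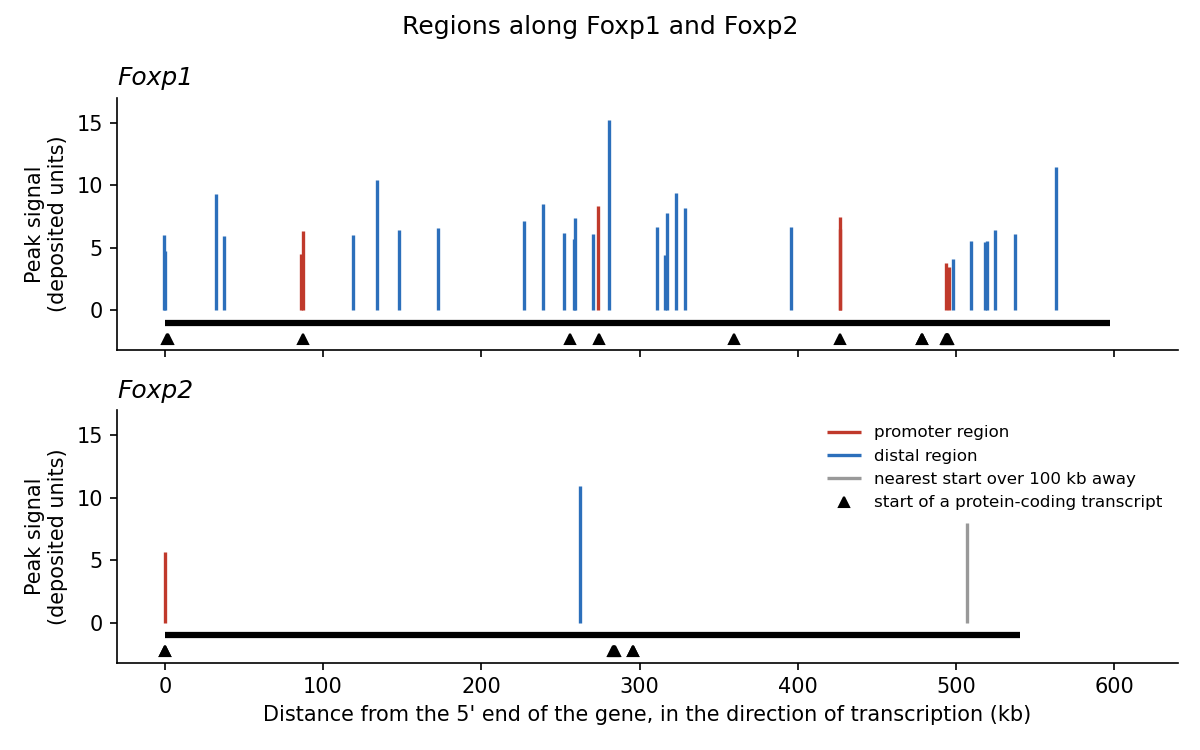
Regions along Foxp1 (top) and Foxp2 (bottom): peak signal (deposited units) against distance from the 5′ end of the gene in the direction of transcription (kb). Red lines are promoter regions, blue lines distal regions and grey lines regions over 100 kb from the nearest start; the black bar is the gene and triangles are starts of coding transcripts. Foxp1 carries lines along much of its length, with a gap around the start at 99163018, and Foxp2 carries few. The Foxp1 regions over 100 kb from a start lie outside the range drawn.

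**Figure D4:**
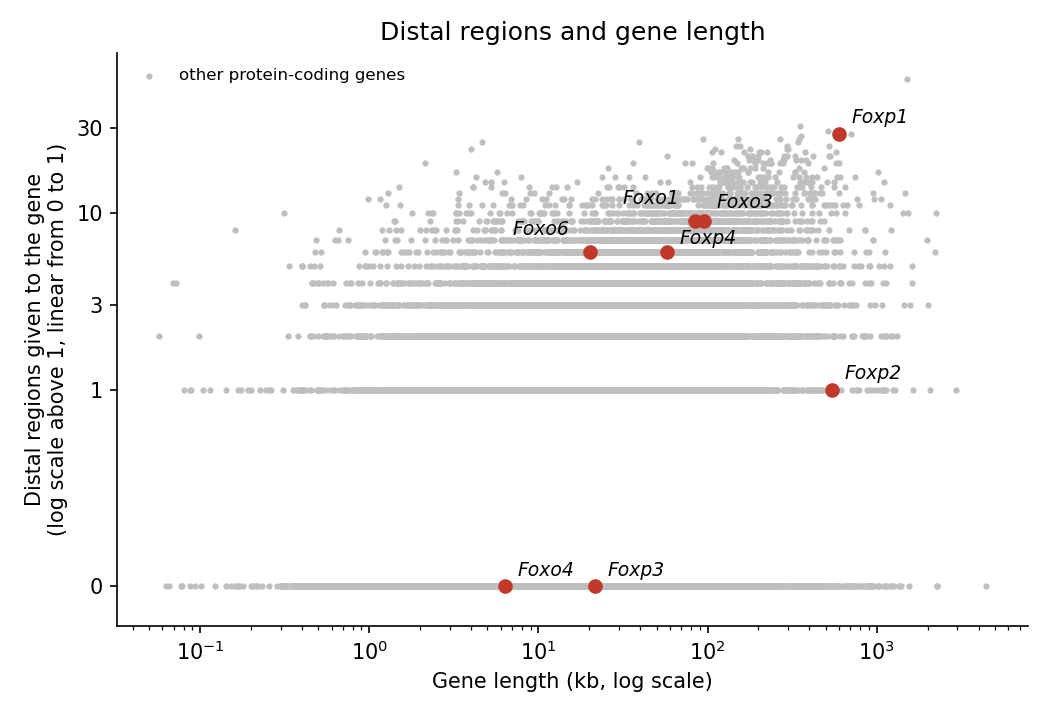
Distal regions given to each gene (log scale above 1, linear from 0 to 1) against gene length (kb, log scale) for 21670 protein-coding genes, with the 8 genes in red. Foxp1, of 597 kb, is at 28 and Foxp2, of 541 kb, at 1.

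Of the 28 distal regions of Foxp1, 27 had their summit inside the gene, 25 of them in an intron and 1 in a coding exon, beside the region in the exon at the 5′ end. The summit of the other one lay upstream of Foxp1, within Gm20696. They lay 1.52 to 83.8 kb from the nearest Foxp1 start and were 224 to 1188 bp wide. Their signals ran from 4.08 to 15.3 with a median of 6.43, and 21 of the 28 were under the median of 8.05 of all distal regions within 100 kb of a start. The strongest, chr6:99241569-99242082, was in an intron 6.52 kb from the start of Foxp1-223, with a signal of 15.3, and 13.4 in each replicate. This is above 96.0% of distal regions, those farther than 100 kb from a start included. The second, chr6:98959305-98960000, had 11.5, with 10.1 and 11.5 in the replicates, and the third, chr6:99388477-99389664, had 10.4, with 9.83 and 9.92. All of these were in both own lists. The upstream part of Foxp1 is overlapped by the protein-coding gene model Gm20696, so peaks there lie in both.

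The single distal region of Foxp2, chr6:15163734-15163994, was in an intron 20.8 kb from a start. Its signal was 10.9, with 10 in replicate 1 and 9.29 in replicate 2, and it was above 77.7% of the same distal regions. It was thus stronger than the promoter region of the gene, in both replicates. One more region inside the gene body, chr6:15407667-15408379, with a signal of 7.96, was 211 kb from the nearest start and outside the rule.

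Foxp4 had 6 distal regions, 3 inside the gene. The strongest, chr17:47942986-47943683, was 18.6 kb upstream with a signal of 9.44, and 7.48 in replicate 1 and 9.20 in replicate 2; it was in the own list of replicate 1 only. The second, chr17:47909204-47909719, in an intron, had 9.32, with 9.16 and 7.47, and was in both. The third had 6.60, with 6.47 and 5.04, and was in neither.

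Foxo1 had 9, of which 6 lay upstream of the gene and 3 in its intron. The strongest, chr3:52308954-52309431, had 10.97, with 9.73 in replicate 1 and 8.57 in replicate 2. The second, chr3:52343325-52343926, had 8.98, with 8.18 and 7.69. Both were intronic and in the own list of replicate 1 only. The third, 5.72 kb upstream, had 8.26, with 7.30 and 7.66, and was in both. With starts of all annotated genes counted, noncoding ones included, 2 of the 9 remained nearest to Foxo1.

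Foxo3 had 9, with 5 inside the gene. The strongest, chr10:42308021-42308498, was 31.6 kb upstream with 9.67, and 9.44 in replicate 1 and 7.34 in replicate 2. The second, in an intron, had 8.29, with 7.36 and 8.04. Replicate 1 alone held both in its own list. The third, 17.3 kb upstream, had 8.27, with 7.45 and 7.75, and was in both.

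Foxo6 had 6, of which 5 were outside the gene. The strongest, chr4:120313178-120313924, was 26.1 kb upstream with 10.1, and 8.92 in replicate 1 and 8.48 in replicate 2. The second had 9.25, with 7.66 and 8.97, and the third 8.92, with 8.04 and 8.12. All of these were in both own lists. Foxo6 was the one gene of the 8 with more of its distal regions in replicate 2's own list (5) than in replicate 1's (4).

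Regions just inside and outside the limits were as follows. The farthest promoter region, at Foxp1, lay 918 bp from a start with a signal of 4.51, and the nearest excluded one was the region 1406 bp from a Foxp1 start, with 4.73. The farthest distal region, at Foxo3, had its summit 87152 bp from a start and a signal of 7.23, and the nearest excluded one, also at Foxo3, was at 105349 bp with 9.15. Beyond 100 kb, 14 regions had one of the genes as nearest: 8 for Foxo1, 3 for Foxp1, 2 for Foxo3 and 1 for Foxp2. The 8 of Foxo1 lay 123 to 366 kb from its start on the downstream side, with signals of 6.31 to 19.2 and a median of 10.5, beside 6.90 for its 9 regions within reach. The strongest of them, chr3:52554765-52555461, exceeded every one of the 74 regions in signal.

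The replicates' own lists held a smaller share of the distal than of the promoter regions of these genes. Of the 15 promoter regions, 11 were in the own list of replicate 1, beside 83.1% of all promoter regions, 9 in that of replicate 2, beside 74.0%, and 9 in both, beside 71.8%. Of the 59 distal regions, 34 were in the list of replicate 1, beside 63.4% of all distal regions, 23 in that of replicate 2, beside 49.2%, and 22 in both, beside 44.3%. The members' shares were 73.3%, 60% and 60% for promoters and 57.6%, 39.0% and 37.3% for distal regions, each below the share over all regions. The exact 95% binomial interval of each includes that share and covers counting error only. For the 3 distal shares it is 44.1% to 70.4%, 26.5% to 52.6% and 25.0% to 50.9%. It treats regions as independent although many belong to the same gene. The own lists also share reads with the list that chose the regions, so the intervals are no test. Another 12 distal regions were in replicate 1's list only, 1 in replicate 2's only and 24 in neither. The median signal of those 24 was 5.60, beside 8.26 for the 22 in both.

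In the more permissive pseudoreplicated lists, replicate 1 held all 59 distal regions and replicate 2 held 56. The share of all distal regions in those lists was not counted, so nothing particular to these genes is read from this. Signals could be set side by side for 71 of the 74. Spearman's rho across these regions was 0.864, which describes regions of the same pair of libraries and not independent samples. The larger of the 2 signals was at most 1.37 times the smaller. The conservative list kept peaks by how reproducible they were between these same replicates. The rho and this ratio are therefore no independent measure of agreement. Replicate 2 had the higher value at 46 regions and replicate 1 at 25, but signals of separate lists may not share a scale.

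**Figure D5:**
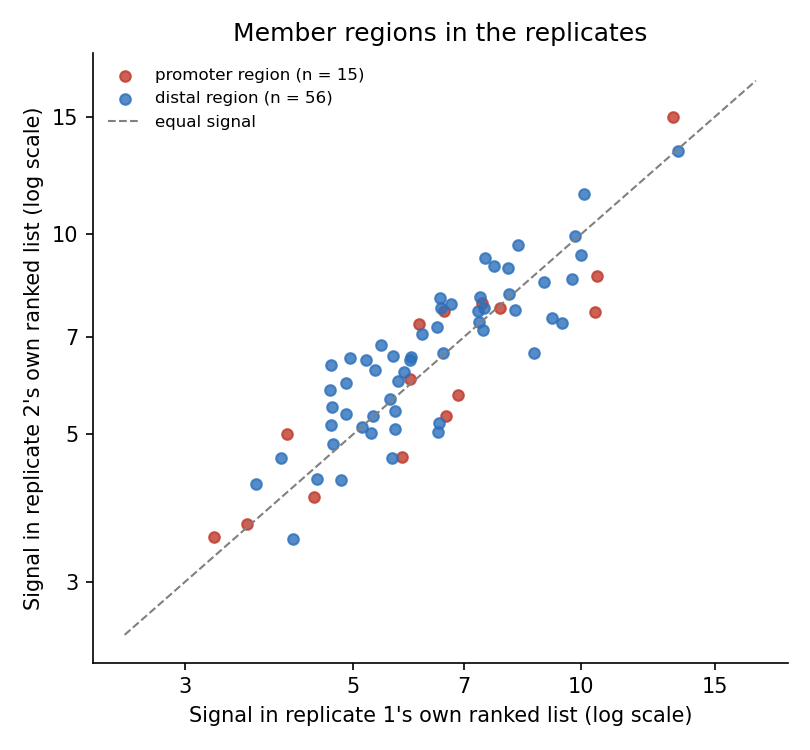
Signal of 15 promoter and 56 distal regions in replicate 2's own ranked list against that in replicate 1's (both log scales, deposited units). The dashed line marks equal signal, and no region departs from it by more than a ratio of 1.37.

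Motifs were counted within 50 bp of the summit, on either strand. The relaxed forkhead set was GTAAACA or ATAAACA or GCAAACA or ACAAACA, and the strict one GTAAACA alone. For the blood factors, the search used AGATAA or TGATAA for the GATA family, TGTGGTT or TGCGGTT for RUNX, GAGGAAGT for PU.1, CCGGAAG for other ETS factors, TTGCNNAA for C/EBP, TAACGG or TAACTG for MYB, and TGACAG for MEIS. It used TGANTCA for AP-1, CAGCTG or CAGATG for the E-box, GGGGCGG or GGGTGTG for SP/KLF, CCAAT for NFY, and a consensus for CTCF, where N is any base. The strict forkhead set lies within the relaxed one, PU.1 and ETS share bases, and a match describes letters and not binding.

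A relaxed forkhead sequence was found in 2 of 15 promoter regions (13.3%), beside 3.07% of all promoter regions. Both were Foxp1 regions, at the starts of Foxp1-223 and Foxp1-218. A share that rests on 2 regions is imprecise, and the difference was not tested. The relaxed sequence was found in 3 of 59 distal regions (5.08%), beside 5.88% of all distal regions. These were the second and the eleventh strongest of Foxp1 and the strongest of Foxp4. The distal share is near that of all distal regions. The strict sequence was in 1 of 59, beside 1.00%. Among the 15 promoter regions, NFY was in 3 (20%, beside 21.6% of all promoter regions) and MEIS in 2 (13.3%, beside 7.09%). PU.1 was in 1 (6.67%, beside 2.74%) and SP/KLF in 1 (6.67%, beside 22.7%). GATA, RUNX, ETS, C/EBP, AP-1, E-box, MYB and CTCF were in none, beside 1.58% (CTCF) to 10.1% (E-box).

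Other motifs in the distal regions were E-box in 14 (23.7%, beside 18.3% of all distal regions), RUNX in 9 (15.3%, beside 9.49%), NFY in 9 (15.3%, beside 10.7%), GATA in 8 (13.6%, beside 12.4%) and SP/KLF in 8 (13.6%, beside 6.32%). PU.1 was in 4 (6.78%, beside 6.71%) and ETS in 2 (3.39%, beside 1.5%). C/EBP, AP-1, MYB and MEIS were in 3 each (5.08%), beside 5.58%, 5.62%, 5.63% and 9.68% of all distal regions. The CTCF consensus was in 0 of 59, beside 8.16% of all distal regions. By the limit of 3 counts, a count of 0 allows a share of up to 5.08% (counting error only). That limit treats regions as independent, although 28 of the 59 belong to Foxp1. It also takes no account of how many motifs were searched, so it is no test. None of these differences was tested. Of the 28 distal regions of Foxp1, 18 (64.3%) had at least 1 of the 13 motifs, and of the 59 distal regions 37 (62.7%) did, beside 68.9% of all distal regions. The window at Foxp1's seventh strongest distal region held GATA, PU.1 and C/EBP matches together.

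Genes most alike to Foxp1, Foxo1 and Foxo3 were sought among 13289 protein-coding genes with a promoter region, by the distance over gene length, distal count and strongest promoter signal, each scaled to its SD. For Foxp1 these were Pde4b, a cyclic AMP phosphodiesterase, with 24 distal regions at 520 kb and a distance of 0.226, Nav2 with 28 at 701 kb and 0.266, and St6galnac3 with 21 at 527 kb and 0.362. For Foxo1 they were Ptger3, a prostaglandin E receptor, with a distance of 0.0551, Trim33 with 0.0644, and Foxo3 with 0.0962. For Foxo3 they were Inpp5d, the phosphatase SHIP1, with 0.0579, Foxo1 with 0.0962 and Agps with 0.125. Foxo1 and Foxo3 were thus each among the other's 3 closest genes, both with 9 distal regions, in genes of 84.9 and 94.9 kb.

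Of the 36 other Fox genes, 19 (52.8%) had a promoter region, which is near the 61.3% of all genes, and 17 had none. The 36 had a median of 1 distal region, and the highest count was 17, at Foxn3, a gene of 374 kb. Foxp1 was above all 36. Gene length was not matched in this comparison.

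In the pathway around the FOXO factors, counts of promoter regions are read beside the 61.3% of all protein-coding genes with one. Of 26 genes upstream of FOXO, mostly of kinases and phosphatases, 25 (96.2%) had a promoter region, and Prkaa2, a catalytic subunit of AMPK, had none. All 16 genes of FOXO modifiers and partners, such as the deacetylase Sirt1, the acetyltransferase Ep300 and Ywhaz, which encodes an adaptor that holds FOXO in the cytoplasm, had one. The median number of distal regions was 4.5 for the upstream genes and 3 for the partners. Irs2, an insulin receptor substrate and itself a FOXO target, led the upstream genes with 16, and Smad3 the partners with 23.

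Of 37 FOXO target genes, 30 (81.1%) had a promoter region, beside 61.3% of all genes. Those without were Ccnd1, Fasl, Ccr7, Trim63, Pck1, G6pc and Igfbp1, among them genes of liver glucose metabolism (Pck1, G6pc) and of muscle (Trim63). Fasl, which encodes a death ligand of lymphocytes, had no promoter region but 11 distal regions, and Ccnd1, a cyclin of the G1 phase, had 9. The median over the 37 was 5 distal regions, and S1pr1, a sphingosine 1-phosphate receptor gene of 4.64 kb, had the most with 25. Of 20 FOXP corepressors and partners, 18 had a promoter region, and Mta1 and Nfatc1 had none. Nfatc1 nevertheless had 16 distal regions. The lists were not matched to all genes in expression or length, and nothing particular to them is read from these counts.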

How the data were processed

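Peak lists on mm10 from ATAC-seq of 2 progenitor libraries were the input, 11 of the 13 deposited. Replicates were taken from the labels as 1 group. Per the labels, the assembly is mm10. Aligner and peak caller: not given in the sources used here. The signal of each peak is the authors' deposited value on a scale that is not stated. The lists also hold −log10 p-values, as deposited by the authors, which were not compared. The score of the deposited ranked list was used to find peaks under the conservative threshold, a score of 540. The files hold no read counts, so no count test was possible and precision is given only as exact binomial intervals over regions and, for a count of 0, as the limit of 3 counts.

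Overlapping peaks on chromosomes 1 to 19 and X were merged, keeping the strongest summit. GENCODE M21 gave 54081 starts of coding transcripts of 21670 genes. A region was a promoter region of a gene when its edge came within 1000 bp of a start. Distal regions had a summit over 1000 bp from every start and went to the nearest within 100 kb. Regions met when they shared 1 bp. Motifs were searched in GRCm38.p6, the build of the files, and shares of all regions come from the same windows, 50 bp to each side. Merging, assignment and motif search were tested on simulated data.

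All 8 genes, every promoter region and the 3 strongest distal regions of each could be named, as could list genes without a promoter region where fewer than those with one, otherwise those with one (at most 6, in list order). Markers and list genes with their roles, the highest count of a list, the seventh and eleventh strongest Foxp1 regions and Foxo1 regions beyond 100 kb fall outside that rule and were picked once their values were known. The genes, lists and motifs were chosen with earlier results of these data known. As alternatives, other lists, only the upper 50% of regions, each replicate by itself, and other windows, reach, starts and motif settings were run; the archived replicated list was chosen after seeing the data. Python 3.11.15, NumPy 2.4.6, pandas 2.3.3, SciPy 1.17.1, pysam 0.24.0 and matplotlib 3.10.9 were used.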

Additional observations from a re-analysis of the deposited data

How the results depend on the processing

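All 8 genes had a promoter region, and 7 or 8 did under every alternative but one, the upper 50% of regions by signal (4 genes). The share of all genes was counted only for the conservative list and the own list of each replicate. The 59 distal regions became 147 with the replicated-peaks list, 308 with its archived version (chosen after seeing the data), 15 in the upper 50%, and 23 to 35 when 1 replicate's own list was used. These lists hold more or fewer peaks by construction. The share of regions in both own lists, 41.9%, became 73.7% in the upper 50% and 95.9% with the pseudoreplicated lists. The shares over all regions in those settings were not counted. The share with a forkhead sequence, 6.76%, became 15.8% in the upper 50%, 16.2% with a window of 100 bp and 1.35% with the strict sequence. The 15.8% rests on 19 regions, promoter and distal together. No share over all regions was set beside the 15.8% or the 16.2%, so neither can be called high or low.

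For the 6 genes with distal regions, their number per 100 kb stayed within 1.5 times of the main value in 41 of 72 pairs of gene and setting. With the replicated-peaks list they became 13.6 for Foxp1, 0.740 for Foxp2, 17.4 for Foxp4, 21.2 for Foxo1, 24.2 for Foxo3 and 54.3 for Foxo6. With the archived list they were 29.6, 2.77, 34.8, 45.9, 37.9 and 98.7 in that order, and 4.63 for Foxp3. The upper 50% gave 1.00 for Foxp1, 3.48 for Foxp4, 2.36 for Foxo1, 1.05 for Foxo3 and 14.8 for Foxo6. Leaving out 1 replicate gave 1.51 to 2.51 for Foxp1, 1.74 to 3.48 for Foxp4, 3.53 to 8.25 for Foxo1, 4.21 to 6.32 for Foxo3 and 19.7 to 24.7 for Foxo6. Summits in the gene body gave 0.555 for Foxp2, 4.63 for Foxp3, 3.53 for Foxo1, 15.8 for Foxo4 and 4.93 for Foxo6. Starts of every transcript gave 0.555 for Foxp2, a reach of 50 kb 14.8 for Foxo6, starts of all annotated genes 5.22 for Foxp4 and 2.36 for Foxo1, and the series IDR-thresholded list 5.22 for Foxp4. Foxp1 stayed above Foxp2 in all of these. Depth per library is unknown, so an absent peak is one not called and not a closed site. No paired analysis was possible because there is 1 group.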
